A study of Capra hircus with 10 samples.

Results

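Goat mammary gland cells that had received either of the control viruses of the study, Lv5NC or Lv3NC, were compared with each other. The comparison holds 4 of the 10 RNA sequencing libraries of the series, the first and second library of Lv5NC and the first and second library of Lv3NC, and they were chosen by their labels and not by measured values. The cells came from Lanshan dairy goats and were grown in 3D culture, and total RNA was sequenced. The other groups, also with 2 libraries each, were Blank (no virus is named for it), OV55666 (a virus for overexpression of the long noncoding RNA lncRNA55666) and KD553 (a virus for its knockdown). The labels give Lv5NC the genotype 5NC and Lv3NC the genotype 3NC. They do not say what either control virus carries, which promoter drives it, or how it differs from the other. Separate cultures or animals behind the paired libraries of a group are not mentioned. A p-value, SE or interval here reflects only how far libraries scatter within the 5 groups, all 10 libraries pooled, possibly for technical reasons. Values are FPKM, fragment counts that were divided by transcript length and by library size, and the depth in reads is unknown.

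A control virus carries the vector without the gene or hairpin under study, so that the effects of delivery can be separated from those of the insert. Where a study uses more than 1 control virus, a difference between the controls is part of every comparison of libraries treated with different vectors. Cells can respond to viral entry and to foreign nucleic acid through sensors that switch on interferon and NF-kB target genes. Lipid synthesis is a central task of the lactating mammary gland, and the genes of cholesterol and fatty acid synthesis are driven by the sterol regulatory element binding proteins.

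The cells of all 4 libraries carried fibroblast RNA and almost no RNA of luminal epithelial markers. The summed FPKM of 16 fibroblast markers lay between 22003 and 24299, led by VIM, COL1A1 and COL1A2. Of the 20 luminal epithelial markers with a row, 18 were below 1 FPKM in all 4 libraries, and the keratin KRT8 and the adhesion genes EPCAM and CDH1 did not exceed 0.02. ESR1, the oestrogen receptor, at 8.85 to 9.56 FPKM, and SPINT2 at 3.23 to 4.73 were the exceptions. The basal or myoepithelial list summed to 1690 to 1858 FPKM over 10 markers with a row, nearly all of it from the contractile genes TAGLN (712.87 to 811.28 FPKM), ACTA2 (711.33 to 800.25) and MYLK (207.72 to 272.65), which smooth muscle cells and myofibroblasts also express. CNN1, at 5.80 to 13.41, and MYH11, at 6.13 to 6.52, are contractile genes too. The other 5 were below 1 FPKM in all 4 libraries, among them the basal keratin KRT14 and the transcription factor TP63, which did not exceed 0.05. KRT5 and KRT17 were not analysed here. The libraries had FPKM totals of 454133 to 460423, and 10933 to 10943 genes reached 1 FPKM.

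The viruses did not separate the libraries. Over the 11340 genes with at least 1 FPKM in at least 2 of the 10 libraries, the median absolute difference on the log2(FPKM + 1) scale was 0.114 between the Lv5NC libraries and 0.0953 between the Lv3NC libraries. Across viruses it was 0.0868 between the first Lv5NC and the second Lv3NC library, 0.0965 between the second Lv5NC and the first Lv3NC library, 0.0963 between the first libraries and 0.126 between the second ones. The mean distance across viruses was thus 0.967 times the mean distance within a virus, and the smallest of the 6 distances joined libraries of different viruses.

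**Figure D1:**
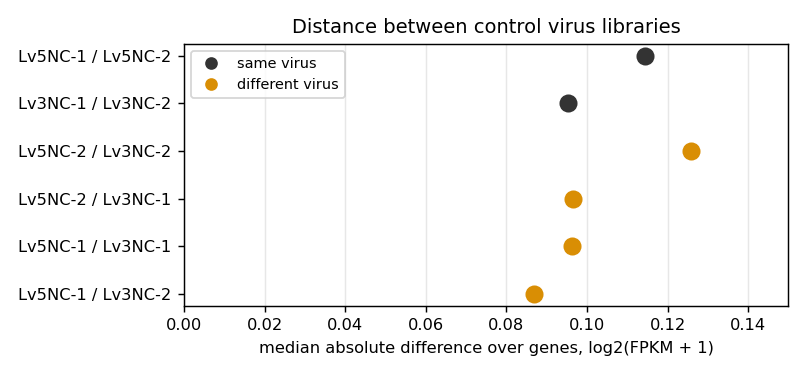
Median absolute difference over 11340 genes, on the log2(FPKM + 1) scale, for each of the 6 pairs of control virus libraries; dark points are pairs of the same virus and orange points pairs of different viruses. The same-virus pairs, at 0.114 and 0.0953, lie within the range of the other 4, from 0.0868 to 0.126.

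The genes that moved most within each virus show the same crossing. They were taken after their values were seen, as the 8 with a symbol and the largest difference in each direction between the libraries of a virus. HES1, a repressor that Notch signalling induces, stood at 10.36 and 2.74 FPKM in the first and second Lv5NC library and at 2.78 and 10.36 in the first and second Lv3NC library. IL33, an alarmin cytokine, stood at 58.95 and 18.14 FPKM in Lv5NC and at 27.56 and 56.13 in Lv3NC. EGR1, an immediate early transcription factor that was among the 8 only in Lv5NC, stood at 332.92 and 126.51 FPKM in Lv5NC and at 165.09 and 310.11 in Lv3NC. In each of these 3 genes the first Lv5NC and the second Lv3NC library were high and the remaining pair was low.

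The opposite order was seen for PDK4, a kinase that restrains glucose oxidation, with 3.54 and 15.19 FPKM in Lv5NC and 6.34 and 1.72 in Lv3NC. RGS2, a brake on G protein signalling, had 52.63 and 132.95 FPKM in Lv5NC and 103.36 and 41.58 in Lv3NC. SIK1, a kinase induced by cyclic AMP, had 5.05 and 13.54 FPKM in Lv5NC and 8.10 and 2.93 in Lv3NC. EEF1A2, a translation elongation factor, had 8.21 and 27.95 FPKM in Lv5NC and 11.63 and 4.05 in Lv3NC. Here the second Lv5NC and the first Lv3NC library were the high ones within their virus. Of the 8 genes highest in the first over the second Lv5NC library, 3 were among the 8 highest in the second over the first Lv3NC library (IL33, TMEM190 and HES1), and 4 were shared in the opposite order (PDK4, EEF1A2, RGS2 and SIK1). With the order taken as labelled in both viruses, 1 and 0 genes were shared. Spreads of similar size occurred inside the other virus groups: HES1 had 11.51 and 2.48 FPKM in the OV55666 libraries and 3.08 and 9.60 in the KD553 libraries, and PDK4 had 4.41 and 15.91 in OV55666 and 15.93 and 2.06 in KD553. The labels name no batch or date that these libraries share.

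**Figure D2:**
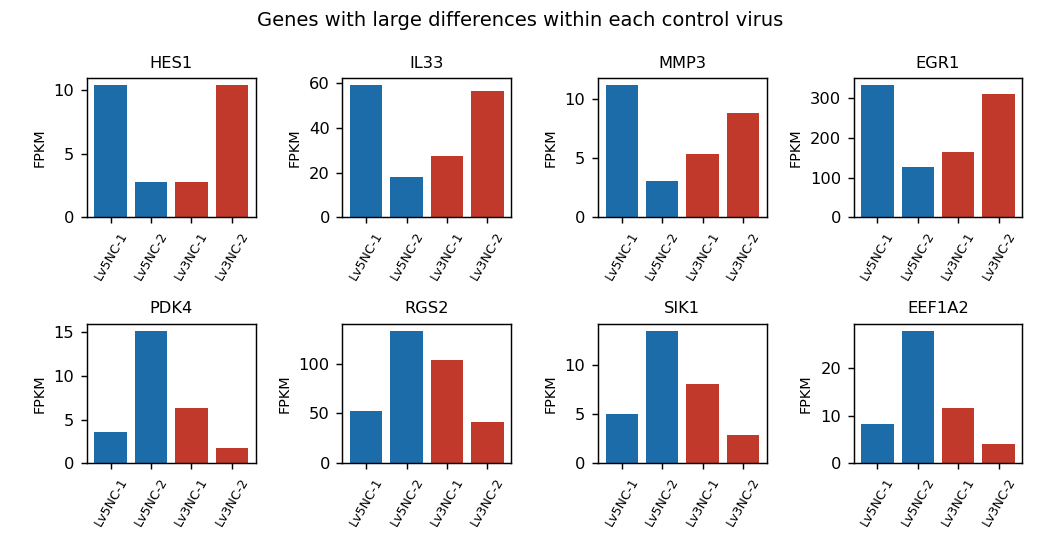
FPKM of 8 genes in the 4 control virus libraries (bars, blue Lv5NC, red Lv3NC, each with its own axis from 0). HES1, IL33, MMP3 and EGR1 are highest in the first Lv5NC and second Lv3NC library, and PDK4, RGS2, SIK1 and EEF1A2 are highest in the second Lv5NC library.

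No gene was called different between the control viruses, against a spread estimated from all 10 libraries. With 2 libraries for each virus, a gene that was not called can still differ. At an adjusted p of 0.05 limma called 0 of 11340 genes (0%). Every adjusted p was 1 in this fit, so that it is not repeated below. In other limma fits the smallest adjusted p was 0.0658 with a pseudocount of 0.1. It was 0.576 with only the 4 control libraries and 0.033 without a filter on low values. An unadjusted p under 0.05 was found for 303 genes (2.67%), of which 117 were higher in Lv5NC (1.03%) and 186 lower (1.64%); 5% of the genes tested would be 567. For 3505 genes (30.9%) both libraries of 1 virus lay above both of the other, 1216 higher in Lv5NC (10.7%) and 2289 lower (20.2%). Were all orders of the 4 libraries equally likely, a share of 0.333 would separate in either direction. The mean was higher in Lv5NC for 4561 genes (40.2%) and lower for 6777 (59.8%), with a median difference of −0.02 on the log2(FPKM + 1) scale. The split of higher against lower rests on the scaling between libraries: 47.4% of genes were higher in Lv5NC after quantile normalization and 50.1% after scaling by median ratios. In the median gene the 95% interval of the difference had a half-width of 0.245 on this scale. An exact permutation test of 2 against 2 libraries cannot give a two-sided p below 0.333, so single genes were judged with the fit across all genes alone. Only 10 genes differed by at least 1 on the log2(FPKM + 1) scale, 7 higher and 3 lower in Lv5NC. The 3 of these with a gene symbol were IGFBP5, EEF1A2 and RPL22L1.

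**Figure D3:**
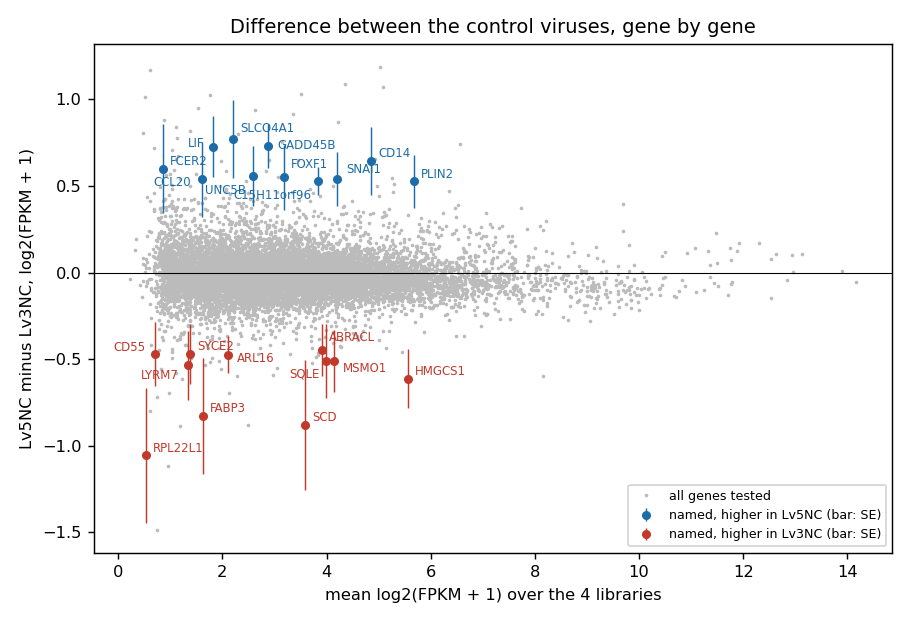
Difference between the control viruses (Lv5NC minus Lv3NC, log2(FPKM + 1)) against the mean level over the 4 libraries for the 11340 genes tested (grey), with 22 named genes in colour and their SE as bars. Named genes lie between −1.06 (RPL22L1) and 0.77 (SLCO4A1), and none has an adjusted p under 1.

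Cholesterol synthesis genes were lower in Lv5NC than in Lv3NC in mean, more so than those of any other list. Of the 20 tested members of a 22-gene list, 18 had a lower mean in Lv5NC and 2 a higher one, with a median difference of −0.40 against −0.02 over all genes. In 14 of the 20 both Lv5NC libraries lay below both Lv3NC libraries, where 20.2% of all genes did so, and 12 had an unadjusted p under 0.05, where 1.64% of all genes did in that direction. None of the 20 passed the test over all genes. IDI1 and CYP51A1, the remaining members of the list, have no row under their symbols. The difference depended in size on the first Lv3NC library, which was above the second for all 20 genes by a median of 0.38; without it the median was −0.21, with 17 of 20 genes lower.

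By step of the pathway, ACAT2, which makes the acetoacetyl-CoA that starts it, stood at 16.40 and 14.96 FPKM in Lv5NC and at 21.53 and 21.31 in Lv3NC (log2 difference −0.43 ± 0.11, SE). HMGCS1, the synthase that adds the next acetyl unit, stood at 35.31 and 39.06 FPKM in Lv5NC and at 67.10 and 48.92 in Lv3NC (−0.61 ± 0.17, 95% interval −0.99 to −0.23). The groups did not overlap for either gene. In this list, as in each with at least 80% of members on 1 side, 4 members were taken for the smallest p on that side. The direction of such members follows from the choice, and their small p and separation do so in part. Of the enzymes that turn mevalonate into farnesyl diphosphate, MVK had 5.37 and 4.84 FPKM in Lv5NC and 7.37 and 6.30 in Lv3NC (−0.36 ± 0.11). FDPS, which makes farnesyl diphosphate itself, had 30.18 and 28.37 FPKM in Lv5NC and 44.77 and 35.55 in Lv3NC (−0.43 ± 0.15). Neither gene overlapped between the viruses. PMVK, the kinase that acts between them, had 2.60 and 2.96 FPKM against 3.33 and 2.54, a difference of −0.05 ± 0.12 with overlapping groups.

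Farther along, SQLE, the epoxidase that commits squalene to sterols, had 10.71 and 14.27 FPKM in Lv5NC and 22.05 and 14.77 in Lv3NC (log2 difference −0.51 ± 0.21). For LSS, which closes the ring to lanosterol, the values were 4.34 and 5.02 FPKM in Lv5NC and 8.40 and 5.28 in Lv3NC (−0.44 ± 0.20). Both genes were highest in the first Lv3NC library, and the second one lay only just above Lv5NC. MSMO1, a sterol demethylating oxidase, had 12.74 and 14.96 FPKM in Lv5NC and 23.26 and 17.35 in Lv3NC (−0.51 ± 0.18). EBP, a sterol isomerase, had 25.80 and 23.36 FPKM in Lv5NC and 31.93 and 29.70 in Lv3NC (−0.32 ± 0.09). Both genes were lower in both Lv5NC libraries. The genes with the smallest differences were LBR (7.08 and 7.87 FPKM against 7.65 and 7.27), a reductase that also anchors chromatin at the nuclear envelope, and GGPS1 (9.38 and 8.99 against 9.58 and 8.53), which makes the geranylgeranyl lipid outside the sterol branch.

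The Blank libraries lay higher still. In them HMGCS1 stood at 70.78 and 95.52 FPKM and FDPS at 51.73 and 70.30. All 20 cholesterol synthesis genes had a lower mean in Lv5NC than in Blank (median −0.83) and a lower mean in Lv3NC than in Blank (median −0.41), and both sets of values share the Blank libraries. Lv3NC lay between Lv5NC and Blank for 18 of the 20. The second Blank library stands apart from the others, with median absolute differences of 0.142 to 0.178 from the 8 libraries that received a virus. In the libraries with a lncRNA55666 virus, HMGCS1 was at 36.48 and 37.24 FPKM in OV55666 and at 31.28 and 27.95 in KD553, below both Lv3NC libraries in each case.

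**Figure D4:**
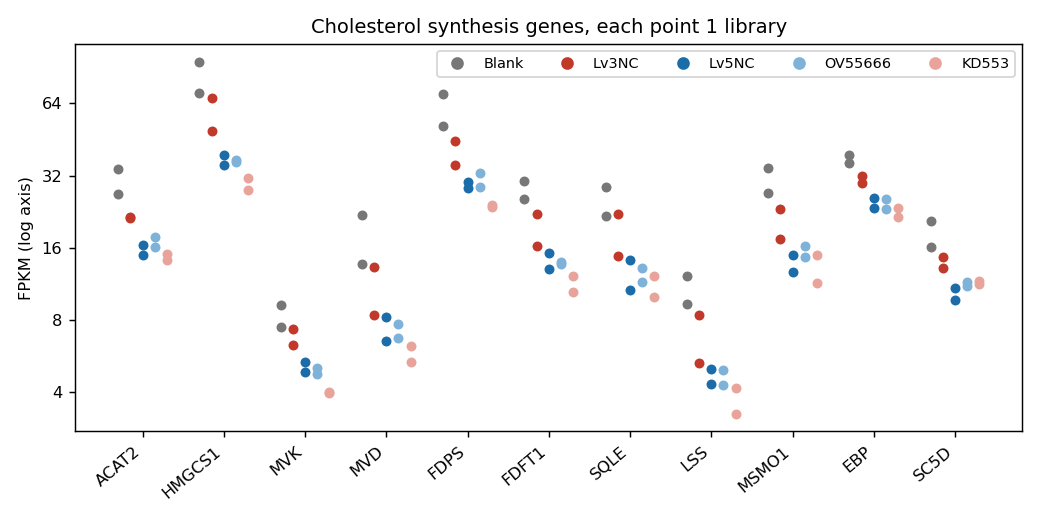
FPKM of 11 cholesterol synthesis genes (log axis) in pathway order, each point 1 library, coloured by group. For HMGCS1 the Blank libraries lie at 70.78 and 95.52, Lv3NC at 48.92 and 67.10 and Lv5NC at 35.31 and 39.06, and the order of the groups is alike in most of the genes shown.

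Genes that sense and move sterols were divided. Of 22 tested members, 13 had a lower and 9 a higher mean in Lv5NC, with a median of −0.06, and the split was 11 and 11 after scaling by median ratios. The median was −0.01 without the first and −0.15 without the second Lv3NC library. In 10 of the 22 both Lv5NC libraries lay below both Lv3NC libraries, against 20.2% of all genes. INSIG1, which retains the sterol sensor in the endoplasmic reticulum, had 3.06 and 3.52 FPKM in Lv5NC and 5.30 and 4.15 in Lv3NC (−0.41 ± 0.28). SREBF2, the transcription factor of the pathway, had 21.98 and 23.32 FPKM in Lv5NC and 28.97 and 23.46 in Lv3NC (−0.20 ± 0.12). In both genes the first Lv3NC library was the highest and the second lay closer to Lv5NC. ABCA1, which exports cholesterol, had 9.46 and 11.27 FPKM in Lv5NC and 15.95 and 12.85 in Lv3NC (−0.44 ± 0.18). CH25H, which makes an oxysterol that represses the pathway, had 3.78 and 4.12 FPKM in Lv5NC and 2.33 and 3.20 in Lv3NC (0.40 ± 0.13), the largest difference toward Lv5NC in this list. MBTPS1, a protease in this list, had 24.67 and 24.95 FPKM in Lv5NC and 25.68 and 24.62 in Lv3NC, with overlapping groups. Its difference of −0.02 ± 0.10 turned to 0.0077 after scaling by median ratios.

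Fatty acid synthesis and desaturation genes had a lower mean in Lv5NC for 11 of 13 tested members, with a median of −0.16, and in 10 both Lv5NC libraries lay below both Lv3NC libraries, where 20.2% of all genes did so. The median ran from −0.11 without the first to −0.24 without the second Lv3NC library. SCD, the desaturase that makes oleic acid, had 7.69 and 7.94 FPKM in Lv5NC and 19.04 and 12.14 in Lv3NC (log2 difference −0.88 ± 0.37, 95% interval −1.75 to −0.01), against 19.87 and 42.47 in Blank. FASN, the fatty acid synthase, had 16.59 and 14.40 FPKM in Lv5NC and 25.48 and 17.46 in Lv3NC (−0.43 ± 0.17). ELOVL6, an elongase, had 8.80 and 8.88 FPKM in Lv5NC and 12.77 and 9.90 in Lv3NC (−0.32 ± 0.12). Each of the 3 was lower in both Lv5NC libraries, with an unadjusted p under 0.05. These 3 and ACACA were taken as the 4 members with the smallest p on the lower side. Their direction follows from that choice, and their small p and separation do so in part. ACACA, which supplies malonyl-CoA, had 7.58 and 7.72 FPKM against 9.32 and 8.40 (−0.19 ± 0.09), and ELOVL1 was at 60.69 and 56.04 against 59.58 and 59.99. Another 5 listed genes, such as MLXIPL and ACACB, stayed below 1 FPKM in every library of the series.

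Genes of fatty acid transport and triglyceride assembly had no common direction, with 12 of 21 higher and 9 lower in Lv5NC. FABP3, a carrier of fatty acids that is abundant in milk-forming cells, had 1.46 and 1.18 FPKM in Lv5NC and 4.68 and 1.98 in Lv3NC (log2 difference −0.83 ± 0.34). PLIN2, which coats lipid droplets and milk fat globules, had 58.53 and 62.29 FPKM in Lv5NC and 38.18 and 45.32 in Lv3NC (0.53 ± 0.15, 95% interval 0.18 to 0.87). CD36, a fatty acid receptor, had 2.07 and 2.61 FPKM in Lv5NC and 1.37 and 1.66 in Lv3NC (0.41 ± 0.24). The groups did not overlap for any of these 3 genes, FABP3 being lower and the others higher in Lv5NC. Over all genes, 30.9% did not overlap in either direction. The 3 were chosen by their values or after these were seen, so their separation says nothing on the list as a whole. Adipocyte markers did not run with PLIN2: 7 of the 9 with a row were below 1 FPKM in all 4 libraries, and the list summed to 14.15 and 14.57 FPKM in Lv5NC and 15.95 and 18.55 in Lv3NC.

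Of the 12 genes with the largest differences toward Lv5NC, a part is described here. They were chosen among genes with non-overlapping groups and an unadjusted limma p under 0.05. Their separation and their intervals above 0 therefore follow from the choice. GADD45B, a stress-induced growth arrest gene, had 9.18 and 7.84 FPKM in Lv5NC and 5.25 and 4.22 in Lv3NC (log2 difference 0.73 ± 0.13, 95% interval 0.44 to 1.02). LIF, a cytokine of the interleukin-6 family, had 3.97 and 3.19 FPKM in Lv5NC and 2.00 and 1.53 in Lv3NC (0.73 ± 0.18). The Lv5NC libraries were the higher ones for both genes, as the choice required. SNAI1, a transcription factor of mesenchymal state, had 21.67 and 20.59 FPKM in Lv5NC and 13.61 and 14.81 in Lv3NC (0.54 ± 0.16). FOXF1, a transcription factor of mesenchyme, had 9.73 and 10.31 FPKM in Lv5NC and 5.73 and 7.41 in Lv3NC (0.55 ± 0.19). UNC5B, a netrin receptor, had 6.09 and 6.48 FPKM in Lv5NC and 3.94 and 3.95 in Lv3NC (0.56 ± 0.17). Neither virus overlapped the other in these 3 genes, as the choice also required. The smallest unadjusted p of all genes, 9.69e-05, belonged to C15H11orf96, with 15.57 and 16.89 FPKM in Lv5NC and 11.35 and 10.53 in Lv3NC (0.53 ± 0.08), while the Blank libraries had 16.81 and 16.76.

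CD14, a co-receptor for bacterial lipopolysaccharide, had 33.03 and 37.23 FPKM in Lv5NC and 21.64 and 22.53 in Lv3NC (log2 difference 0.64 ± 0.20). It carried most of the leukocyte marker list, whose sum was 35.92 and 40.45 FPKM in Lv5NC and 24.24 and 26.14 in Lv3NC. The defining leukocyte gene PTPRC did not exceed 0.01 FPKM, CD4 and AIF1 were listed at 0 in all 4 libraries, and 14 of the 16 markers with a row were below 1. In bulk RNA, fewer cells of a type and less RNA per cell cannot be told apart.

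NF-kB target genes had a higher mean in Lv5NC for 13 of 21 tested members and a lower one for 8, with a median of 0.10. The groups did not overlap in 8 higher and 3 lower members, against 10.7% and 20.2% of all genes. An unadjusted p under 0.05 was found for LIF, CCL20 and RELB, all higher in Lv5NC, where 1.03% of all genes had one in that direction. LIF and CCL20 were among the genes chosen for the largest differences, a choice that required such a p and non-overlapping groups. CCL20, a chemokine, had 2.47 and 2.89 FPKM in Lv5NC and 1.89 and 1.21 in Lv3NC (0.54 ± 0.22), and RELB, an NF-kB subunit, had 4.57 and 5.24 against 3.60 and 3.50 (0.37 ± 0.16). The abundant targets lay close together: NFKBIZ had 39.87 and 38.55 FPKM in Lv5NC and 37.94 and 39.98 in Lv3NC, and SOD2 had 41.23 and 41.22 against 39.28 and 45.89. IL11 differed more within the viruses than between them, with 35.34 and 14.03 FPKM in Lv5NC and 13.90 and 21.79 in Lv3NC.

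Interferon-stimulated genes did not separate the viruses. Of 24 tested members 17 had a higher mean in Lv5NC and 7 a lower one, with a median of 0.03 and 0 with an unadjusted p under 0.05, and without the second Lv5NC library the count turned to 8 higher and 16 lower (median −0.05). Without the first Lv3NC library the median was 0.0077. MX1, an antiviral GTPase, had 36.53 and 43.56 FPKM in Lv5NC and 34.13 and 35.93 in Lv3NC (log2 difference 0.18 ± 0.16). IFI6 was at 14.87 and 31.35 FPKM in Lv5NC and at 21.92 and 12.20 in Lv3NC (0.38 ± 0.52). The groups overlapped for IFI6, while both Lv5NC libraries were above both Lv3NC libraries for MX1. The Blank libraries lay in the same range, with 38.76 and 31.99 FPKM for MX1.

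Of 18 sensors and adaptors of foreign nucleic acid, 12 had a higher and 6 a lower mean in Lv5NC (median 0.03; 9 and 9 without either Lv5NC library, at 0.01 and −0.0019; 0.05 and 0.06 after quantile and median-ratio scaling). TICAM1, the adaptor of the double-stranded RNA receptor TLR3, was the only one with an unadjusted p under 0.05, with 3.48 and 4.05 FPKM in Lv5NC and 2.67 and 2.62 in Lv3NC (log2 difference 0.38 ± 0.11). TLR3 itself had 2.52 and 3.19 FPKM against 2.69 and 2.64, and MAVS, the mitochondrial adaptor, had 12.94 and 11.48 against 12.12 and 11.70, with overlapping groups for both. TLR7, TLR8 and TLR9 stayed below 1 FPKM in every library of the series.

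Cell cycle genes had a lower mean in Lv5NC for 44 of 49 tested members, with a median of −0.12, but 1 library set this count. The first Lv5NC library was above the second for 46 of the 49 genes, by a median of 0.30, and without the second one the list turned to 29 higher and 20 lower (median 0.05); without the first the median was −0.29. TYMS, which makes thymidylate for DNA synthesis, had 30.76 and 27.57 FPKM in Lv5NC and 38.21 and 36.05 in Lv3NC (log2 difference −0.34 ± 0.14), the only member with an unadjusted p under 0.05. RRM1, a ribonucleotide reductase subunit, had 15.81 and 14.50 FPKM against 17.69 and 16.53 (−0.17 ± 0.12). PCNA, the replication clamp, had 15.79 and 13.11 against 17.43 and 15.64 (−0.19 ± 0.12). TYMS and RRM1 did not overlap between the viruses and PCNA did. CCND1, the cyclin of early cell cycle entry, ran with the libraries and not with the virus, at 34.25 and 22.01 FPKM in Lv5NC and 25.88 and 33.45 in Lv3NC.

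Cytosolic ribosomal protein genes had a slightly lower mean in Lv5NC for 46 of 47 tested members, with a median of −0.09. In 16 of the 47 both Lv5NC libraries lay below both Lv3NC libraries, against 20.2% of all genes. The count fell to 30 of 47 after quantile normalization (median −0.02) and to 31 of 47 without the second Lv5NC library (median −0.02); without the first the median was −0.17. RPL22 had 127.51 and 120.06 FPKM in Lv5NC and 139.12 and 153.95 in Lv3NC (log2 difference −0.24 ± 0.09), the only member with an unadjusted p under 0.05. RPS12 had 775.04 and 694.67 FPKM against 806.93 and 881.01 (−0.20 ± 0.12). RPL22L1, the paralog of RPL22, was listed at 0 in both Lv5NC libraries and at 1.10 and 1.06 FPKM in Lv3NC, but also at 0 in the second Blank library, in 1 OV55666 library and in both KD553 libraries. Of 24 nuclear genes of oxidative phosphorylation, 19 had a lower mean in Lv5NC (median −0.06; 14 of 24 after quantile normalization; −0.10 without the first and −0.04 without the second Lv5NC library), and 0 had an unadjusted p under 0.05.

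Circadian clock genes had a higher mean in Lv5NC for 14 of 17 tested members (median 0.11), and 7 of them did not overlap, where 10.7% of all genes did so. None had an unadjusted p under 0.05. NR1D2, a repressor of the clock, had 7.53 and 8.39 FPKM in Lv5NC and 7.09 and 6.80 in Lv3NC (log2 difference 0.17 ± 0.08). RORA, its activating counterpart, had 2.46 and 2.04 FPKM in Lv5NC and 1.81 and 1.78 in Lv3NC (0.21 ± 0.11). PER1, which also responds to acute stimuli, had 13.72 and 19.08 FPKM in Lv5NC and 16.54 and 11.55 in Lv3NC, with overlapping groups.

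Immediate early genes, switched on within a short time of a stimulus, split into 19 higher and 11 lower in Lv5NC (median 0.08), and the median was 0.01 without the first Lv5NC library, 0.21 without the second and 0.16 without the second Lv3NC library. FOS had 359.68 and 168.81 FPKM in Lv5NC and 200.78 and 349.26 in Lv3NC, the same crossing as EGR1. NR4A1, a nuclear receptor of this class, had 93.16 and 156.71 FPKM in Lv5NC and 89.51 and 57.66 in Lv3NC (log2 difference 0.74 ± 0.34). Its groups did not overlap, by the margin between 93.16 and 89.51. EGR3 was at 3.11 and 3.56 FPKM against 2.38 and 2.26 (0.38 ± 0.15), the only member with an unadjusted p under 0.05.

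Of 20 tested collagen chains 14 had a higher mean in Lv5NC (median 0.10; 10 of 20 and 0.00305 without the second Lv3NC library), among them COL1A1 with 5859.38 and 4896.46 FPKM against 4641.10 and 4864.92 (log2 difference 0.17 ± 0.14). COL4A1, a basement membrane chain, had 148.34 and 247.27 FPKM in Lv5NC and 217.32 and 126.04 in Lv3NC, a crossing like that of RGS2. IGFBP5, which binds insulin-like growth factors, had the largest difference toward Lv5NC of all genes tested, with 35.60 and 65.60 FPKM in Lv5NC and 31.03 and 13.68 in Lv3NC (1.19 ± 0.74, 95% interval −0.55 to 2.93). Its lowest Lv5NC library lay just above the highest Lv3NC library, and the libraries within each virus differed by about as much as the viruses.

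Across the 29 pathway lists with at least 5 tested members, 5 had at least 80% of their members on 1 side: cholesterol synthesis, fatty acid synthesis, cell cycle, cytosolic ribosomal proteins and circadian clock. Cholesterol synthesis had a median between the viruses of −0.40, against −0.14 between the Lv5NC libraries and 0.38 between the Lv3NC libraries. The medians between the viruses of fatty acid synthesis, −0.16, and of the circadian clock, 0.11, were also larger in size than both medians within them. For the cell cycle the median between the viruses, −0.12, was smaller in size than the 0.30 and 0.13 within them, and for ribosomal proteins −0.09 stood beside 0.13 and −0.09. The lists were chosen with earlier results of these data known, and no test was made of a list as a whole.

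**Figure D5:**
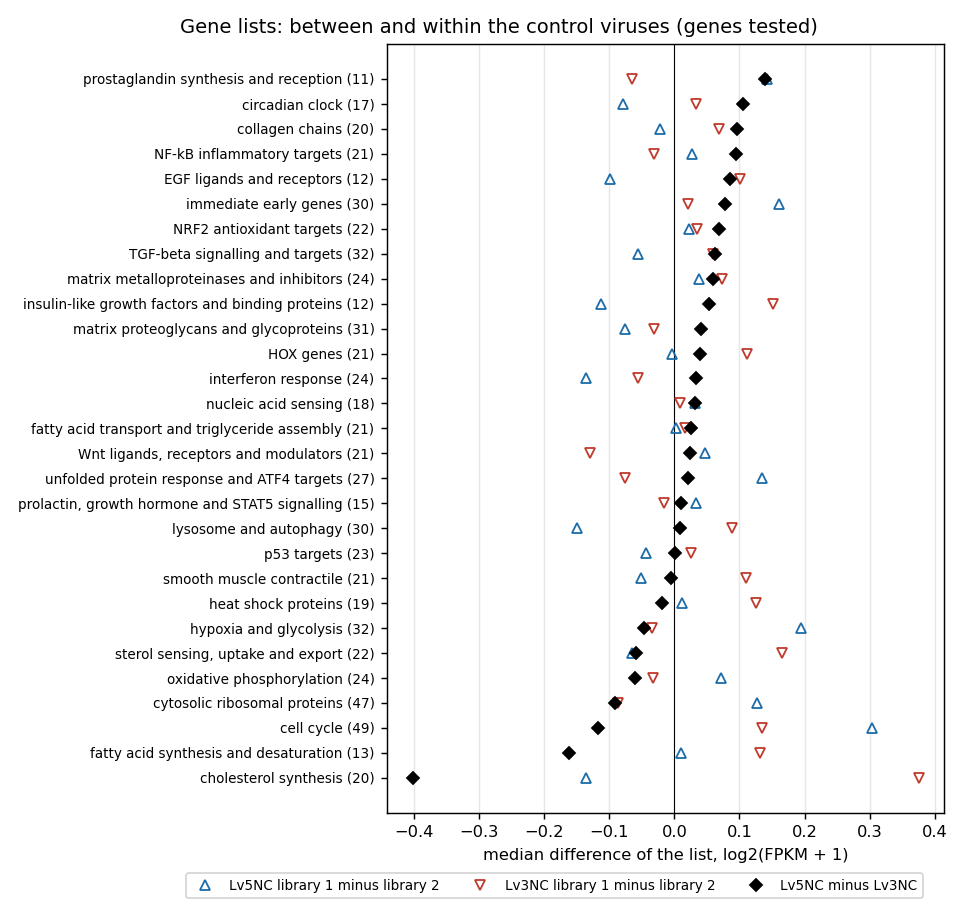
Median difference of each pathway list with at least 5 tested members (number tested in brackets) on the log2(FPKM + 1) scale: black diamonds Lv5NC minus Lv3NC, open triangles the first minus the second library of Lv5NC (blue) and Lv3NC (red). Among the lists with at least 80% of members on 1 side, 3 have a diamond farther from 0 than both triangles. These are cholesterol synthesis, at −0.40, fatty acid synthesis, at −0.16, and the circadian clock, at 0.11.

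The libraries that carry a lncRNA55666 virus give a comparison that shares no library with the controls. Whether they use the vectors of Lv5NC and Lv3NC is not stated, and a vector difference cannot be told apart there from the manipulation of the lncRNA. In OV55666 against KD553 limma called 1 of 11340 genes (0.00882%), HSPB6, a small heat shock protein, at 55.77 and 59.70 FPKM in OV55666 and 121.29 and 114.94 in KD553 (log2 difference −1.02 ± 0.10, adjusted p = 0.0308). The count was 0 without a filter on low values, with only those 4 libraries, without the Blank group, without the trend and robust options, without the second OV55666 library and without either KD553 library. In the control viruses HSPB6 was at 53.67 and 58.91 FPKM in Lv5NC and at 62.00 and 52.42 in Lv3NC. An unadjusted p under 0.05 was found for 718 genes (6.33%).

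The direction of the control comparison was met again in 6494 of 11340 genes (57.3%), and in 172 of the 303 genes with an unadjusted p under 0.05 (56.8%), a share close to that over all genes. Across genes, which are not independent replicates, Pearson's r between the differences was 0.163 and Spearman's rho 0.178. Cholesterol synthesis went the other way, with 17 of 20 members higher in OV55666 than in KD553, where 47.8% of all genes were higher and 52.2% lower (median 0.19, against −0.40 for Lv5NC minus Lv3NC). The median of the NF-kB targets was −0.18, against 0.10, and that of the immediate early genes −0.16, against 0.08. Cell cycle genes were lower in OV55666 for 41 of 49 (median −0.11) and circadian clock genes higher for 12 of 17 (median 0.15), the same sides as in the control viruses. Fatty acid synthesis genes went both ways, with FASN at 0.08 and SCD at −0.09 in OV55666 minus KD553. Ribosomal protein genes are not given for this comparison.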

How the data were processed

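RNA sequencing was done on total RNA of cultured goat mammary gland cells, 2 libraries in each of 5 groups, and groups were taken from the sample titles. The authors deposited 1 table of FPKM with 17197 genes (unit per the file headers; values carry 2 decimals). Alignment, quantification and genome build: not given in the sources used here. No read counts were used, so depth and counting error are unknown. Symbols came from the RefSeq table of the ARS1.2 assembly, which matched 16658 gene identifiers; the other 539 are named BGI_novel. No row was found under the name lncRNA55666, whose level is not analysed here.

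Values were analysed as log2(FPKM + 1), a scale that understates the differences of low genes, for genes with at least 1 FPKM in at least 2 libraries. Differences were tested in R 4.3.3 with limma 3.58.1 (trend and robust options, a mean for each group, all 10 libraries, 5 residual degrees of freedom). Benjamini-Hochberg adjustment was made over all 11340 genes. The fit was also run on simulated data with 200 changed genes and independent noise in each library. Differences shared across groups, such as those between the real libraries, were not simulated. The numbers of the KD553 libraries differ between titles and descriptions, so they were used without numbers.

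The members, the 30 pathway lists and 7 marker lists, the naming rule and the tests were chosen with earlier results of these data known. The rule took, among genes with a symbol, non-overlapping groups and an unadjusted p under 0.05, the 12 largest differences in each direction, then 4 members by p and 4 by level from certain lists and the 3 highest markers of each marker list. Not every gene it takes is described, and some are not reported here. Other named list members, and the genes that differ within a virus, were chosen after their values were seen. Alternatives were other pseudocounts, filters, scalings, sets of libraries, variance options, a replicate block and leaving out each library of the groups compared. Added after seeing the data were 2 alternatives, the block with the Lv3NC numbers exchanged and leaving out the second Blank library.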

Additional observations from a re-analysis of the deposited data

How the results depend on the processing

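Between Lv5NC and Lv3NC, 0 genes had an adjusted p under 0.05 in limma under every alternative that kept 2 libraries a group, with 1 exception. Without a filter on low values the count was 1 (BGI_novel_G000258, log2 difference −0.20, adjusted p = 0.033). Libraries left out 1 at a time were the 4 of the control viruses and the second Blank library. At an unadjusted p under 0.05 the count was 303 in the reported fit, 545 without a filter, 191 with a filter at 5 FPKM, and 202 to 352 when a library was left out. For OV55666 against KD553 the count was 1 in the reported fit, 2 with a filter at 5 FPKM or quantile normalization, and 0 without a filter, with only those 4 libraries, without the Blank group, or without the trend and robust options. Leaving out each library gave 0 to 1, and 412 to 1040 at an unadjusted p under 0.05. The number of lists with at least 80% of members on 1 side, 5 as reported, was 3 without a filter, 8 after quantile normalization and 2 to 6 with a library left out.

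Leaving out a library moved the median of cholesterol synthesis between −0.544 and −0.210, of fatty acid synthesis between −0.244 and −0.105, and of the cell cycle between −0.289 and 0.0535. The median of the circadian clock was 0.0628 with a pseudocount of 5 and 0.172 with a filter at 5 FPKM. The ratio of distances across to within viruses, 0.967, ran from 0.953 to 0.975. Of 63 genes that the naming rule takes and that are reported here, 13 changed sign under at least 1 alternative. Genes taken only as cell type markers are not among the 63. MBTPS1 became 0.00766 with median-ratio scaling. The other reversals came from leaving out 1 library. The values ran from −0.0798 to 0.341 for NPC2, −0.0478 to 0.0106 for MBTPS1, −0.0917 to 0.0213 for ELOVL1, −0.151 to 0.0680 for SOD2, −0.0276 to 0.0461 for NFKBIZ, −0.294 to 0.980 for IL11 and −0.162 to 0.0251 for B2M. They ran from −0.132 to 0.895 for IFI6, −0.00272 to 0.0697 for ADAR, −0.0487 to 0.111 for MAVS, −0.150 to 0.00311 for CDK4, −0.0106 to 0.154 for CCND2 and −0.403 to 0.212 for CCND1. The causes of these changes were not tested.

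The replicate numbers pair no samples by the labels. Deviations of same-numbered libraries from their group means correlated at −0.462 between Lv5NC and Lv3NC and at 0.503 between Lv5NC and OV55666. With the number as a replicate block, 0 genes had an adjusted p under 0.05 and 314 an unadjusted one. With the block and the Lv3NC numbers exchanged the counts were 0 and 471. FPKM keep no read depth, so counting error could not be separated from the spread between libraries.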
